A study of Homo sapiens with 18 samples.

Results

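Niraparib and olaparib were compared directly in cells of the breast cancer line T47D whose genotype is labelled PARP1 KO. The comparison took the 3 libraries of each drug, 6 of the 18 in the series, by their genotype and treatment labels, without use of any measured value. Niraparib and olaparib were given at 10 μmol/L for 48 hours, and 3 further PARP1 KO libraries received the vehicle DMSO. All 9 PARP1 KO libraries came from a line labelled T47D JL, and the 9 libraries labelled WT, with the same 3 treatments, came from a line labelled T47D AAV. Whether T47D JL is 1 clone or a pool is not given in the sources used here, and the study's text names no knockout line for its transcriptomics. PARP1 loss and any other difference between these lines therefore cannot be told apart. The libraries of a group are labelled as replicates, the study's methods describe separate dishes for each condition, and the P values measure the spread between such libraries.

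T47D is an estrogen receptor-positive luminal line. PARP1 and PARP2 sense DNA strand breaks and attach chains of ADP-ribose to themselves and to neighboring proteins, which draws repair factors to the break. PARP inhibitors occupy the NAD+ pocket of these enzymes and hold PARP1 and PARP2 on damaged DNA. Olaparib is built on a phthalazinone and niraparib on an indazole carboxamide with a piperidine ring, and both carry the amide that mimics nicotinamide. In cells in which the main target was reduced, the comparison asks in which transcripts the drugs still differ.

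The check of the targeted gene came first. In CPM, the read count scaled to the size of its library, PARP1 had 25.1 ± 1.38 (SD, n = 9) in all PARP1 KO and 337 ± 26.95 (n = 9) in all WT libraries. The former is 7.45% of the latter (P = 4.1e-05 by a 2-sided exact permutation test, which can give no smaller value with 9 libraries a side). PARP1 did not differ detectably between the drugs in PARP1 KO cells, with 23.7, 22.7 and 26.2 CPM with niraparib and 24.6, 27.1 and 25.6 CPM with olaparib. Its paralog PARP2 had 46.4, 46.2 and 45.1 CPM with niraparib and 56.8, 51.2 and 50.8 CPM with olaparib, or -0.21 ± 0.063 (SE) on the log2 scale with an adjusted P of 0.040 (edgeR). PARP2 did not pass when DMSO replicate 1 or any one of 5 drug libraries (all but olaparib replicate 3) was left out, with adjusted P from 0.053 to 0.18. The 6 drug libraries held between 28890837 and 42054783 counts, mitochondrial transcripts took from 4.60% to 5.69% of them and long noncoding RNA from 0.915% to 1.17%, and all 3 ranges overlapped between the drugs. All 15 luminal markers were at 57.1 CPM or more on average with each drug. Of 14 markers of fibroblasts, leukocytes, endothelium and basal cells, 11 were under 1 CPM with each drug, 3 of them at 0 counts in all libraries of that drug, and their sum was 141.5 to 174.6 CPM with niraparib and 143.9 to 164 CPM with olaparib, most of it COL1A1 and ACTA2.

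The drugs differed in few transcripts, and most differences were modest. Of 22037 genes tested, 236 (1.07%) were called, that is, had both a Benjamini-Hochberg adjusted P under 0.05 and a difference over 1.5-fold (edgeR, quasi-likelihood test). Of these, 137 (0.622%) were higher and 99 (0.449%) lower with niraparib than with olaparib. By adjusted P alone, 2203 (10.0%) passed, 940 (4.27%) higher and 1263 (5.73%) lower, and by unadjusted P 22.1% did. The median absolute log2 fold change of the called genes was 0.79, and 56 of them exceeded 2-fold. The called gene nearest the fold threshold had an absolute log2 fold change of 0.589 and the nearest gene outside it 0.584. At a mean of 1 CPM or more over the 6 drug libraries, 194 genes were called, 108 higher and 86 lower, out of 13516. The 3 niraparib and 3 olaparib libraries did not overlap for 234 of the 236 called genes, against 25.2% of all genes tested. For 82.7% of the genes at 1 CPM or more, the 95% confidence interval of the difference lay within 1.5-fold in either direction. The count fell to 144 without niraparib replicate 2, and 123 of these genes were among the 236.

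**Figure D1:**
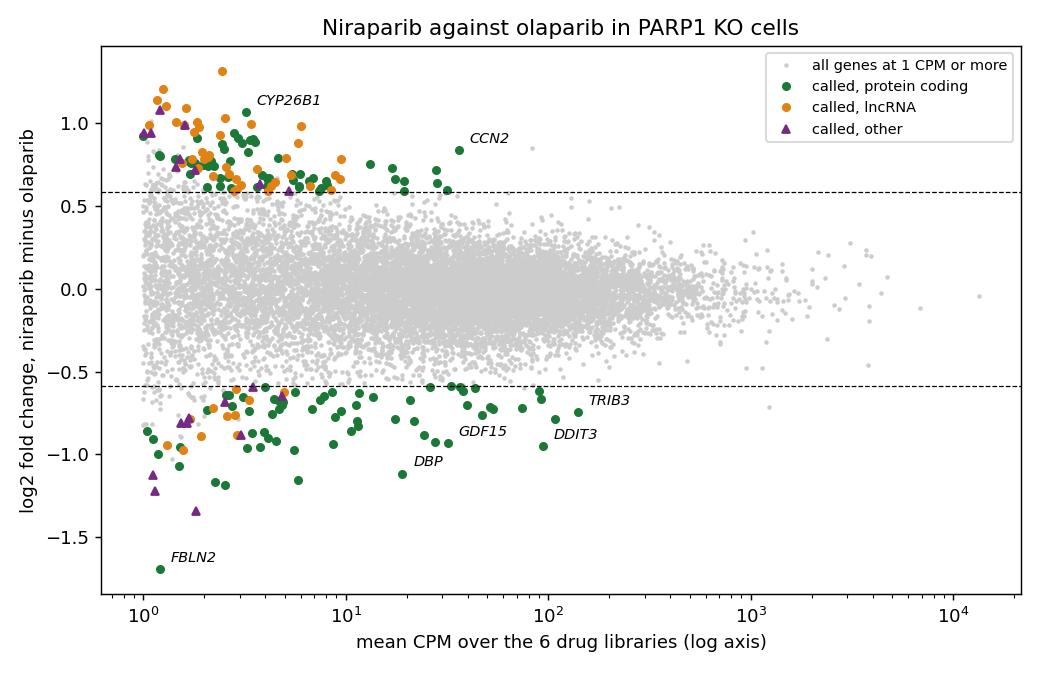
Log2 fold change of niraparib minus olaparib in PARP1 KO cells (y axis) against the mean CPM over the 6 drug libraries (x axis, log scale) for the 13516 genes at 1 CPM or more. Colored points are called genes by class, and dashed lines mark 1.5-fold. The 41 called lncRNA on the upper side lie under 10 CPM, while the lower side holds TRIB3, DDIT3, GDF15 and DBP at higher levels.

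Niraparib and olaparib libraries differed by a root mean square of 0.267 on the log2 scale on average, against 0.214 among niraparib and 0.217 among olaparib libraries (P = 0.10 by a 2-sided exact permutation test, which cannot go lower with 3 libraries a side). Single libraries did not all follow these averages. Niraparib replicate 3 was nearer to olaparib replicate 3 (0.220) than to niraparib replicates 1 and 2 (0.240 and 0.243), and olaparib replicates 1 and 3 lay 0.268 apart. On the first principal component of the 9 libraries (35.5% of the variance), niraparib replicate 3 (-10.3) stood beside olaparib replicates 2 and 3 (-12.0 and -19.0), while niraparib replicates 1 and 2 were at 7.41 and 10.2. The same measure of distance was 0.211 between DMSO and niraparib and 0.259 between DMSO and olaparib. Against DMSO, 3 genes (0.0136% of those tested) were called with niraparib, all higher, and 177 (0.803%) with olaparib, of which 103 (0.467%) were higher and 74 (0.336%) lower. DESeq2 called 8 with niraparib and 153 with olaparib. By adjusted P alone 0.109% of genes passed with niraparib (0.0590% higher, 0.0499% lower) and 8.29% with olaparib (4.42% higher, 3.87% lower), and by unadjusted P 9.14% and 21.1%. These comparisons share their libraries with the direct one, so their values are only set beside it. DMSO lay nearer to niraparib in 188 of the 236 called genes and nearer to olaparib in 48. The DMSO level was between those of the drugs in 207, with a median position 76.0% of the way from olaparib to niraparib. Genes chosen for a difference between the drugs will tend to have DMSO between them. No share over all genes tested is given beside these counts. Of the 236 genes, 114 had an adjusted P below 0.05 between olaparib and DMSO and 0 between niraparib and DMSO (edgeR), where 57 had an unadjusted P below 0.05 and DESeq2 gave 4 at an adjusted P below 0.05.

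Several genes of the circadian clock were lower with niraparib than with olaparib. In the clock, CLOCK and BMAL1 bind E-box elements (CACGTG) and activate PER, CRY, NR1D1, DBP and CIART, whose products feed back on the loop or pass the rhythm on to output genes. Of 19 members tested, 4 were called lower (0.449% of all genes) and 0 higher, and 11 were lower (5.73% of all genes) and 0 higher by adjusted P alone (edgeR). The other 8 did not pass, and 4 of the 19 had values above 0. The median log2 fold change was -0.27 against 0.003 over all genes. Leaving out each library in turn gave 4 or 5 called members and 9 to 12 by adjusted P. With olaparib against DMSO, 11 of the 19 were higher and 0 lower by adjusted P, whereas with niraparib against DMSO 0 were higher and 1, PER3, was lower (log2 fold change of -0.29). The libraries of the drugs did not overlap for 13 of the 19 (25.2% of all genes), all lower with niraparib.

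Promoter windows of the clock genes were searched in RefSeq sequences of GRCh38.p14, from 250 bases before to 50 after the start site, and 18 of the 19 members had one. An E-box, CACGTG on either strand, stood in 5 of the 18 (27.8%), namely PER1, TEF, BHLHE40, BHLHE41 and CIART, against 10.1% of the windows of genes tested at 1 CPM or more. CIART is shown because it holds 3, beginning 129, 71 and 57 bases before the start, and DBP because it had the largest difference of the list and holds none of these letters in this window. Capitals mark CACGTG in the 250 bases before each start.
CIART (chr1:150282304-150282553, + strand): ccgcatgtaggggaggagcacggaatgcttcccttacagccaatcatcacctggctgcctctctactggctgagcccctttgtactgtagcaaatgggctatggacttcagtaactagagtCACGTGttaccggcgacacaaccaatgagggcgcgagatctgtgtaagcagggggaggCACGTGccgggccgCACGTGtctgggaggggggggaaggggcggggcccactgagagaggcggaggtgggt
DBP (chr19:48637380-48637629, − strand): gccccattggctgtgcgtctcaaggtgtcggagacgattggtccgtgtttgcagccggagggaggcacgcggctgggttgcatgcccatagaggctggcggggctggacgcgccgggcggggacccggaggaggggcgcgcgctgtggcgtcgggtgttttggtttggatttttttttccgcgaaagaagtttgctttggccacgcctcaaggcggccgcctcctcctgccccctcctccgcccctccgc

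DBP, a PAR bZIP output regulator of the clock (chromosome 19 from 48630030 to 48637438 of GRCh38), had 12.1, 12.2 and 11.8 CPM with niraparib, 31.3, 24.1 and 22.7 CPM with olaparib, and 14.2, 13.8 and 12.3 CPM with DMSO. Every olaparib library was above every niraparib and DMSO library, and the log2 fold change between the drugs was -1.12 ± 0.10 (SE, adjusted P = 3.4e-06, edgeR). NR1D1, the REV-ERBα repressor of the loop, had 17.2, 17.1 and 17.2 CPM with niraparib and 38.6, 28.0 and 28.5 CPM with olaparib, or -0.89 ± 0.10 on the log2 scale (adjusted P = 6.1e-05). The niraparib values lay within the DMSO range of 16.5 to 18.3 CPM. CIART, a repressor of CLOCK and BMAL1, had 16.8, 14.8 and 15.9 CPM with niraparib and 30.7, 24.7 and 27.2 CPM with olaparib, or -0.80 on the log2 scale with an adjusted P of 1.6e-05 (edgeR). Olaparib replicate 1 was the highest library for DBP, NR1D1 and CIART, and all 3 remained called without it. Below 1.5-fold but with an adjusted P under 0.05 were PER1 (log2 fold change of -0.56), CRY2 (-0.49), PER3 (-0.49), NR1D2 (-0.48), TEF (-0.33), PER2 (-0.25) and CLOCK itself (-0.23). The highest values of the list were those of BMAL1 (0.16) and BHLHE41 (0.17), which did not pass.

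**Figure D2:**
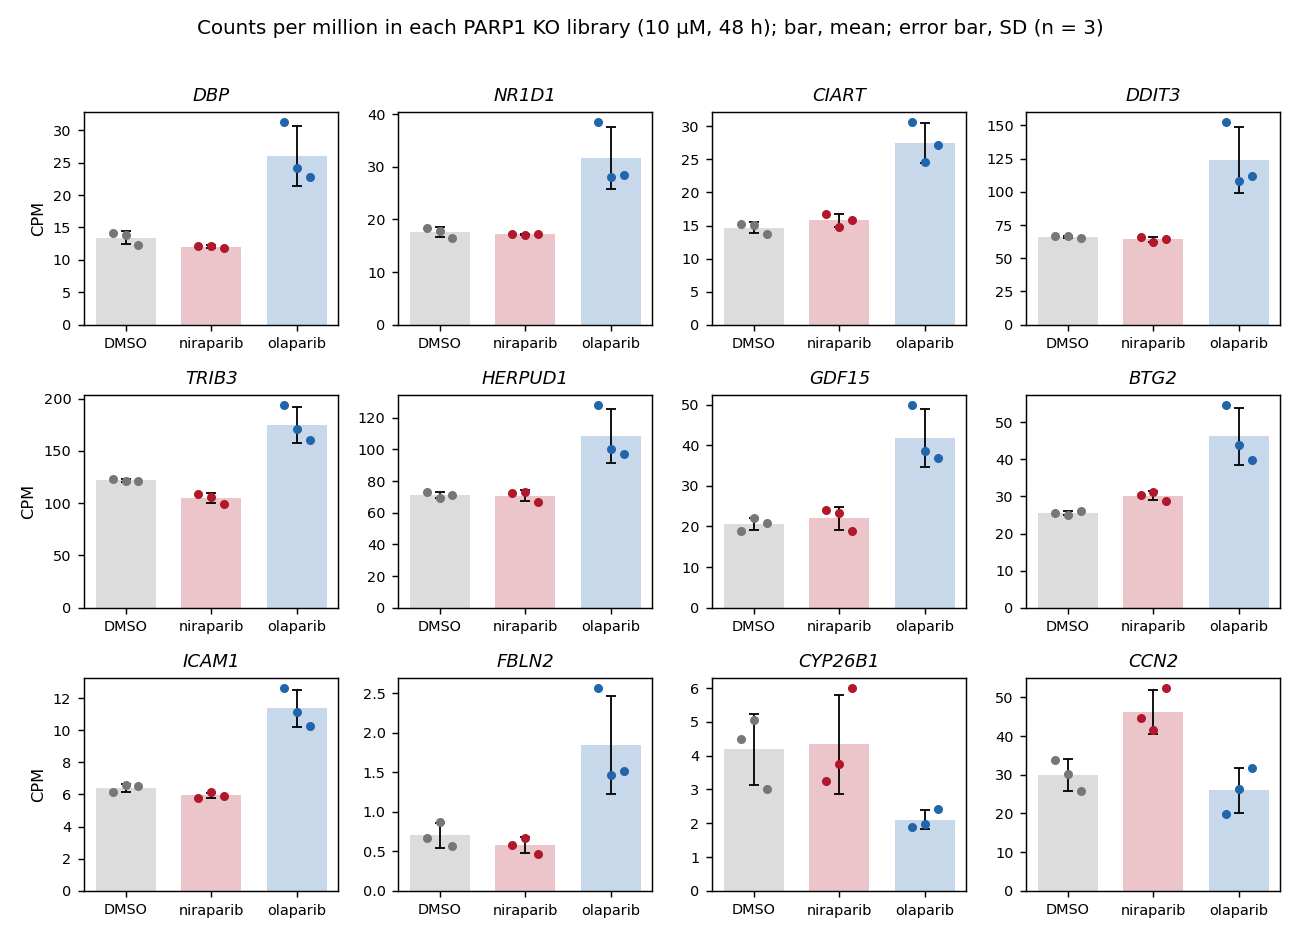
CPM (y axis, from 0) of 12 genes in each PARP1 KO library with DMSO, niraparib or olaparib, with bars for means and error bars for the SD (n = 3). In the first 10 panels, from DBP to FBLN2, the olaparib libraries lie above all others, while for CYP26B1 and CCN2 the niraparib libraries lie above those with olaparib.

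A part of the ATF4 and unfolded protein response genes was also lower with niraparib than with olaparib. ATF4 is translated when eIF2α is phosphorylated under amino acid shortage or endoplasmic reticulum stress, and it induces genes for amino acid synthesis and transport and the regulators DDIT3 and TRIB3. Of 29 members tested, 4 were called lower and 0 higher, and 14 were lower and 0 higher by adjusted P alone, against 0.449% and 5.73% lower among all genes. The other 15 did not pass, 3 members had values above 0 (XBP1 at 0.11 the highest), and the median log2 fold change was -0.29. With each library left out, 2 to 4 were called and 11 to 16 passed by adjusted P. Without olaparib replicate 1 the 2 called members were DDIT3 and TRIB3, and the median was -0.19. Against DMSO, 14 of the 29 were higher and 1 lower with olaparib by adjusted P, and 0 either way with niraparib (edgeR).

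DDIT3, which encodes the stress transcription factor CHOP (chromosome 12 from 57516588 to 57521737), had 65.7, 62.3 and 64.7 CPM with niraparib, 153, 108 and 112 CPM with olaparib, and 66.6, 66.6 and 64.9 CPM with DMSO. All niraparib and DMSO libraries lay between 62.3 and 66.6 CPM, and the log2 fold change between the drugs was -0.95 ± 0.12 (SE, adjusted P = 0.0020, edgeR). TRIB3, a pseudokinase induced by ATF4 and CHOP (chromosome 20 from 362835 to 397559), had 109, 106 and 99.5 CPM with niraparib, 194, 171 and 160 CPM with olaparib and 124, 121 and 121 CPM with DMSO. Its log2 fold change of -0.74 ± 0.060 had the lowest adjusted P of all genes tested, 5.3e-07 (edgeR). DDIT4, an inhibitor of mTORC1 signaling, had 38.9, 43.5 and 34.5 CPM with niraparib and 77.7, 59.4 and 54.3 CPM with olaparib, a log2 fold change of -0.71, which was -0.55, under 1.5-fold, without olaparib replicate 1. HERPUD1, a component of endoplasmic reticulum-associated degradation, had 72.8, 72.9 and 67.0 CPM with niraparib and 128, 100 and 97.1 CPM with olaparib, a log2 fold change of -0.62 that fell under 1.5-fold without olaparib replicate 1 (-0.48) or niraparib replicate 3 (-0.57). Members below 1.5-fold included ATF4 itself (-0.34), the mitochondrial folate enzyme MTHFD2 (-0.45), the serine synthesis enzymes PSAT1 (-0.34) and PHGDH (-0.29), the amino acid transporter subunit SLC3A2 (-0.30) and the chaperone HSPA5 (-0.30), each with an adjusted P under 0.05. ASNS, asparagine synthetase, had a log2 fold change of -0.81 that did not pass.

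The composite element bound by C/EBP and ATF factors, TGATGNAA on either strand, stood in 4 of 27 promoter windows of this list (14.8%), those of ASNS, CHAC1, SLC3A2 and HERPUD1, against 1.55% of the windows of genes tested at 1 CPM or more. Among all genes called lower, 4 of 59 windows held this element (6.78%). HERPUD1 is shown as the called member that holds one, 176 bases before the start, where capitals mark it on the opposite strand. The window also holds a CACGTG, left in lower case.
HERPUD1 (chr16:56931892-56932141, + strand): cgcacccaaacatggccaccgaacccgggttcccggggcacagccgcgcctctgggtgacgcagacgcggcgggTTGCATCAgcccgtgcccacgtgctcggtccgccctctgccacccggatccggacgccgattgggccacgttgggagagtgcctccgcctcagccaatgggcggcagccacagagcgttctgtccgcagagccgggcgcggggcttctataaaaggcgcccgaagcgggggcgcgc

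Among p53 targets, 3 of 22 were called lower with niraparib and 0 higher. By adjusted P alone 9 were lower and 2 higher, with a median log2 fold change of -0.19. Among all genes 0.449% were called lower and 5.73% were lower by adjusted P. GDF15, a secreted stress cytokine, had 24.1, 23.2 and 18.8 CPM with niraparib, 49.9, 38.6 and 36.9 CPM with olaparib and 19.004, 22.023 and 20.9 CPM with DMSO. The drugs differed by -0.93 ± 0.13 (SE) on the log2 scale (adjusted P = 0.0011, edgeR). BBC3, the proapoptotic BH3-only protein PUMA, had 5.38, 5.37 and 4.73 CPM with niraparib and 10.3, 7.47 and 7.80 CPM with olaparib, a log2 fold change of -0.73 that was -0.57 without olaparib replicate 1. BTG2, an antiproliferative gene that is also an immediate early gene, had 30.4, 31.2 and 28.8 CPM with niraparib and 54.6, 43.98 and 39.9 CPM with olaparib, a log2 fold change of -0.62 that was -0.48 without olaparib replicate 1 and -0.58 without niraparib replicate 3. Without each library in turn, 1 to 4 members of the list were called lower. The cell cycle inhibitor CDKN1A had a log2 fold change of -0.10 and did not pass. The members higher with niraparib by adjusted P were AEN, an apoptosis-associated nuclease (0.45), and TP53I3, a quinone oxidoreductase (0.32). GDF15 and BTG2 answer to other stress pathways as well, and SESN2 stands in both this list and the previous one.

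Of the remaining lists, 5 held called members. Among all genes 0.622% were called higher and 0.449% lower. In the NF-kB list, 2 of 14 were called lower. ICAM1, an adhesion receptor for leukocytes, had 5.79, 6.13 and 5.90 CPM with niraparib and 12.6, 11.1 and 10.3 CPM with olaparib, a log2 fold change of -0.94 ± 0.11 (SE, adjusted P = 2.6e-05, edgeR), and TNFAIP3, the feedback inhibitor A20, had a log2 fold change of -0.71 (adjusted P = 0.023), which did not pass without any one of 4 drug libraries (niraparib replicates 1 and 2, olaparib replicates 1 and 2, adjusted P from 0.064 to 0.10). In the hypoxia and glycolysis list of 28, KDM3A, a histone demethylase, was called lower (log2 fold change of -0.60, -0.53 without olaparib replicate 1) and EGLN3, a prolyl hydroxylase that marks HIF for degradation, was called higher (0.81, adjusted P = 0.041), although its adjusted P ranged from 0.051 to 0.11 in 12 of 17 alternatives. CCN2, a matricellular target of YAP and TGF-β signaling, had 44.7, 41.6 and 52.4 CPM with niraparib, 19.9, 26.4 and 31.6 CPM with olaparib and 33.9, 30.1 and 25.8 CPM with DMSO. Its log2 fold change of 0.84 ± 0.19 (SE) had an adjusted P of 0.037 (edgeR), which was between 0.064 and 0.11 in 7 alternatives, among them those without any one niraparib library, without olaparib replicate 2 or without DMSO replicate 2. CYP1A1, the classical target of the aryl hydrocarbon receptor, was called higher (log2 fold change of 0.77, adjusted P = 0.021, edgeR), with 3.28, 4.30 and 2.63 CPM with niraparib and 2.21, 1.67 and 2.08 CPM with olaparib, but not without niraparib replicate 2 (0.57, adjusted P = 0.17) or olaparib replicate 2 (0.67, adjusted P = 0.12). It was the 1 called gene of 8 in its list, where CYP1B1 was higher (0.17) and ARNT lower (-0.19) by adjusted P and AHRR, the repressor of the receptor, had the lowest log2 fold change (-0.75, adjusted P = 0.56). The fifth of these lists, immediate early genes, held BTG2 alone among 24. It had 0 called members without olaparib replicate 1 or without niraparib replicate 3, and 2 called higher and 1 lower without olaparib replicate 3.

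Among the 12 genes with the largest differences at 1 CPM or more in each direction, all but DBP, described above, had at most 402 counts in any drug library. On the lower side, FBLN2, an extracellular matrix glycoprotein, had 0.586, 0.671 and 0.470 CPM with niraparib, 2.56, 1.47 and 1.51 CPM with olaparib and 0.671, 0.871 and 0.566 CPM with DMSO. The drugs differed by -1.70 ± 0.30 (SE) on the log2 scale (adjusted P = 8.7e-04, edgeR). RENBP, an N-acetylglucosamine epimerase that also binds renin, had 4.62, 3.41 and 2.82 CPM with niraparib and 10.3, 7.004 and 6.56 CPM with olaparib (log2 fold change of -1.16). N4BP2L1 (-1.19), the CAP-Gly protein CLIP3 (-1.17), the phosphatase DUSP13 (-1.07), the carbonic anhydrase CA14 (-0.999) and the calcium-binding protein S100P (-0.98) followed, together with the tryptase pseudogene TPSP2 (-1.34), the ribosomal protein pseudogene RPS19P7 (-1.22), the antisense transcript PRDX6-AS1 (-0.97) and the unclassified transcript ENSG00000279108 (-1.13). RPS19P7 is a near copy of a ribosomal protein gene, so its reads may be split between copies. CA14 was not called without any one of 5 drug libraries (adjusted P from 0.051 to 0.095), TPSP2 not in the fit of all 18 libraries (adjusted P = 0.19) and ENSG00000279108 not without niraparib replicate 2 (adjusted P = 0.060).

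On the higher side, 1 of the 12 genes with the largest differences was protein coding. CYP26B1, which degrades retinoic acid (chromosome 2 from 72129238 to 72148038), had 3.24, 3.75 and 5.998 CPM with niraparib, 1.90, 1.98 and 2.42 CPM with olaparib and 4.48, 5.06 and 3.02 CPM with DMSO. Its log2 fold change of 1.07 ± 0.24 (SE, adjusted P = 0.0087, edgeR) did not pass without olaparib replicate 1 or olaparib replicate 2 (adjusted P = 0.058 for both). The gene with the largest difference, the lncRNA ENSG00000273314 (chromosome 7 from 148696467 to 148698664), had 3.21, 3.26 and 3.95 CPM with niraparib and 1.05, 1.52 and 1.65 CPM with olaparib, a log2 fold change of 1.32 ± 0.20 (SE, adjusted P = 2.4e-04). The other 10 had log2 fold changes between 0.99 and 1.21, among them LINC02701 (1.10), LINC00235 (1.09), TMEM167B-DT (1.01), SDCBP2-AS1 (0.999) and the pseudogene ZBED10P (0.99). Of the genes named here, LINC00235 lost its call in 7 of 17 alternatives (adjusted P from 0.0515 to 0.0995), TMEM167B-DT without niraparib replicate 1, olaparib replicate 1 or olaparib replicate 2 (adjusted P from 0.057 to 0.074), LINC02701 without niraparib replicate 2 (adjusted P = 0.086) and ZBED10P without niraparib replicate 3 (adjusted P = 0.052).

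Long noncoding RNA made up 41 of the 108 genes called higher at 1 CPM or more (38.0%) and 11 of the 86 called lower (12.8%), against 7.44% of all 13516 genes at this level. The class was not fixed in a list and was examined after these counts were seen. Of 1006 lncRNA at 1 CPM or more, 85 were higher and 20 lower with niraparib by adjusted P alone, with a median log2 fold change of 0.096, against 806 higher and 1213 lower of 11995 protein-coding genes and a median of -0.010. In the range of 1 to 3 CPM, 26 of 538 lncRNA (4.83%) and 25 of 904 protein-coding genes (2.77%) were called higher. From 3 to 10 CPM the counts were 15 of 330 (4.55%) and 24 of 1578 (1.52%), and at 10 CPM or more 0 of 138 and 9 of 9513 (0.0946%). At that level, 28 of the 138 lncRNA were higher and 4 lower by adjusted P (edgeR). Antisense transcripts, by their names, gave 18 of 292 called higher and 3 lower, and divergent transcripts 5 of 141 and 0. Among the 52 called lncRNA, 3 overlapped exons of a neighbor on their own strand. The median of the 1006 lncRNA ranged from 0.039 to 0.16 and the number called higher from 22 to 49 when each library was left out. The share of counts in lncRNA, given above, overlapped between the drugs.

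The study's selected lists of sterol genes, whose choice may have drawn on data of this series and which are not taken as independent evidence of a direction, held 0 called genes between the drugs in PARP1 KO cells with edgeR at the filter used, a count that for 1 gene, INSIG1, depended on the setting. Cholesterol is made from acetyl-CoA through mevalonate, squalene and lanosterol, and when sterols are scarce the SREBP2 factor induces most of the enzymes together with INSIG1, which retains SREBP in the endoplasmic reticulum. Of 24 mevalonate and prenylation genes, 0 were called (edgeR and DESeq2), 3 were lower and 2 higher by adjusted P alone, and 4 and 2 by unadjusted P. Of 22 cholesterol synthesis genes, edgeR called 0 and DESeq2 called 1, INSIG1, lower, while 1 was lower and 1 higher by adjusted P, and 2 and 3 by unadjusted P. The medians were -0.051 and 0.031, the latter -0.011 without olaparib replicate 3. MSMO1, a sterol methyl oxidase, had 80.1, 72.9 and 65.5 CPM with niraparib and 109, 89.6 and 86.8 CPM with olaparib. Its log2 fold change of -0.39 ± 0.092 (SE, adjusted P = 0.020, edgeR, and 0.077 without niraparib replicate 2) was below 1.5-fold, as was that of HMGCS1, a synthase at the start of the pathway (-0.24, adjusted P = 0.0062). INSIG1 had 66.0, 63.7 and 52.1 CPM with niraparib, 113, 83.8 and 78.3 CPM with olaparib and 65.1, 66.4 and 70.4 CPM with DMSO. Its log2 fold change of -0.60 (95% confidence interval from -0.97 to -0.24) had an adjusted P of 0.056 with edgeR. It was called lower in 7 of 17 alternatives, among them edgeR with filterByExpr (adjusted P = 0.031), with no filter on low counts (0.025), with non-robust dispersions (0.0038) and without olaparib replicate 3 (0.028), and DESeq2 (0.0034). In the others the adjusted P was 0.058 to 0.13, except without olaparib replicate 1, where the log2 fold change was -0.42 (adjusted P = 0.0044).

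LSS, lanosterol synthase, which closes squalene epoxide into the first sterol, had 121, 114 and 122 CPM with niraparib and 109, 116 and 120 CPM with olaparib, a log2 fold change of 0.052 (95% confidence interval from -0.057 to 0.16). SQLE (-0.13), MVD (-0.059), FDFT1 (-0.044), CYP27A1 (-0.19), and the fatty acid genes SCD (-0.074) and FASN (0.000245) did not pass. Of 14 LXR genes, 0 were called (edgeR and DESeq2), 0 passed by adjusted P and 0 by unadjusted P. ABCA1 (0.42, adjusted P = 0.35) and ABCG4 (0.35, adjusted P = 0.59), cholesterol exporters, were at 2.5 CPM or less in every drug library, where a difference of this size was not detectable, and MYLIP, which degrades the LDL receptor, stood at -0.049.

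FOS and DUSP1, an AP-1 subunit and a phosphatase that acts on MAP kinases, were higher than with DMSO under either drug. FOS had 86.1, 85.0 and 78.8 CPM with niraparib, 74.2, 87.9 and 68.3 CPM with olaparib and 43.2, 45.9 and 47.01 CPM with DMSO. The difference between the drugs was 0.12 on the log2 scale (95% confidence interval from -0.040 to 0.27, adjusted P = 0.41, edgeR). Without olaparib replicate 2 the difference for FOS was 0.23 (adjusted P = 0.042). For DUSP1 the difference between the drugs, with all libraries in the fit, was 0.012 (95% confidence interval from -0.13 to 0.15). MORN3, the remaining gene called with niraparib against DMSO, had 9.93, 9.79 and 9.95 CPM with niraparib and 8.15, 6.195 and 6.35 CPM with olaparib, a log2 fold change of 0.52 (adjusted P = 0.0061) below 1.5-fold.

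In the lists of cell division and DNA repair, 0 genes were called by edgeR or DESeq2 with all libraries in the fit. Without olaparib replicate 3 and without niraparib replicate 2, 1 S phase gene was called lower. The counts by adjusted P here and in the lists that follow stand against 4.27% higher and 5.73% lower among all genes. All 31 G2/M genes had intervals within 1.5-fold, 3 were lower by adjusted P (TOP2A, CDC25B and AURKB) and 10 lower and 1 higher by unadjusted P, with a median of -0.10. The median was -0.034 without olaparib replicate 1 and -0.062 without niraparib replicate 3. With each library left out, 2 to 6 members were lower by adjusted P, with 6 without olaparib replicate 3 or niraparib replicate 1 and 5 without DMSO replicate 3. Of 40 S phase genes, 7 were higher, among them the helicase subunits MCM3 to MCM6, and 4 lower by adjusted P (10 and 5 by unadjusted P), with log2 fold changes from -0.52 for E2F8 to 0.33 for GINS4. Among 34 homologous recombination and Fanconi genes, 1 was higher (BRCA1, 0.18) and 3 lower by adjusted P (3 and 7 by unadjusted P), and all 34 intervals lay within 1.5-fold. With each library left out, 0 to 2 of these genes were higher and 2 or 3 lower by adjusted P. The count higher was 0 without olaparib replicate 1 or 3, niraparib replicate 1 or 3, or any one DMSO replicate. Of the 15 heat shock genes, 0 were called by edgeR or DESeq2, 6 were higher by adjusted P, led by HSPH1 (0.51), HSPA8 (0.35) and DNAJA1 (0.29), and 2 were lower, CRYAB (-0.54) and HSPA1B (-0.29), with 6 and 3 by unadjusted P. HSPA1A and HSPA1B are near-identical copies whose reads may be split. The lists of luminal markers, estrogen receptor targets, NRF2 targets, interferon-stimulated genes, base excision repair, PARP family, lysosome, ERK feedback, drug efflux, mitochondrial transcripts, other cell types and further SREBP targets also held 0 called genes with edgeR and with DESeq2 with all libraries in the fit, with medians from -0.12 to 0.14 and between 0 and 6 members in either direction by adjusted P (0 to 10 by unadjusted P). With 1 library left out, some of these lists gained 1 called gene. In the interferon-stimulated list it was higher without niraparib replicate 3 or olaparib replicate 1 and lower without niraparib replicate 1. In the ERK feedback list it was higher without niraparib replicate 3 or DMSO replicate 2, and in the list of estrogen receptor targets without niraparib replicate 3. The median of the mitochondrial transcripts, 0.14 in the full fit, was 0.034 without niraparib replicate 3 and 0.29 without olaparib replicate 3, where 4 of them were higher by adjusted P. That of the markers of other cell types moved from -0.020 to 0.32 without olaparib replicate 2, with 0 members past the test.

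**Figure D3:**
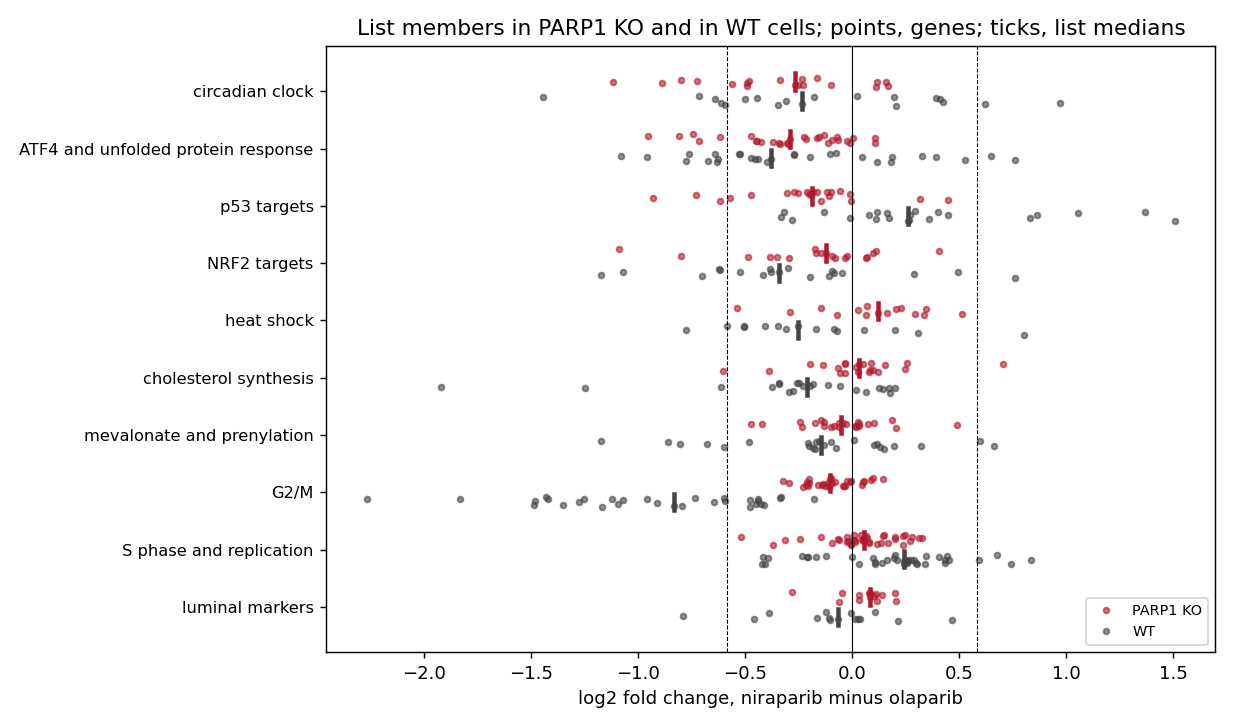
Log2 fold change of niraparib minus olaparib (x axis) for each tested member of 10 lists in PARP1 KO cells (red) and WT cells (grey), with thick ticks for list medians and dashed lines at 1.5-fold. The G2/M genes sit between -0.32 and 0.15 in PARP1 KO cells, with a median of -0.10 (-0.034 without olaparib replicate 1), and have a median of -0.83 in WT cells.

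The same drugs differed in far more genes in WT cells, in libraries that share none with the PARP1 KO comparison. In WT, 2009 of 22446 genes (8.95%) were called, 1261 (5.62%) higher and 748 (3.33%) lower with niraparib. The difference between the drugs itself differed between the genotypes in 800 of 24675 genes (3.24%), with 294 (1.19%) more positive and 506 (2.05%) more negative in PARP1 KO cells (edgeR interaction term). Of the 236 genes called in PARP1 KO cells, 119 (50.4%) were called in WT, which is 6.05% of the 1968 WT-called genes tested in PARP1 KO cells, and all 119 had the same direction. The sign was shared by 217 of the 236, with a median WT log2 fold change of 0.69 in the PARP1 KO direction. Of the WT-called genes, 82.4% had the same sign in PARP1 KO cells, at a median of 0.25 in the WT direction against 0.87 in WT, and for 41.8% the PARP1 KO interval lay within 1.5-fold. Across 13319 genes at 1 CPM or more in each genotype, the log2 fold changes correlated with a Pearson r of 0.50 and a Spearman rho of 0.47, as a description over genes, which are not independent replicates.

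**Figure D4:**
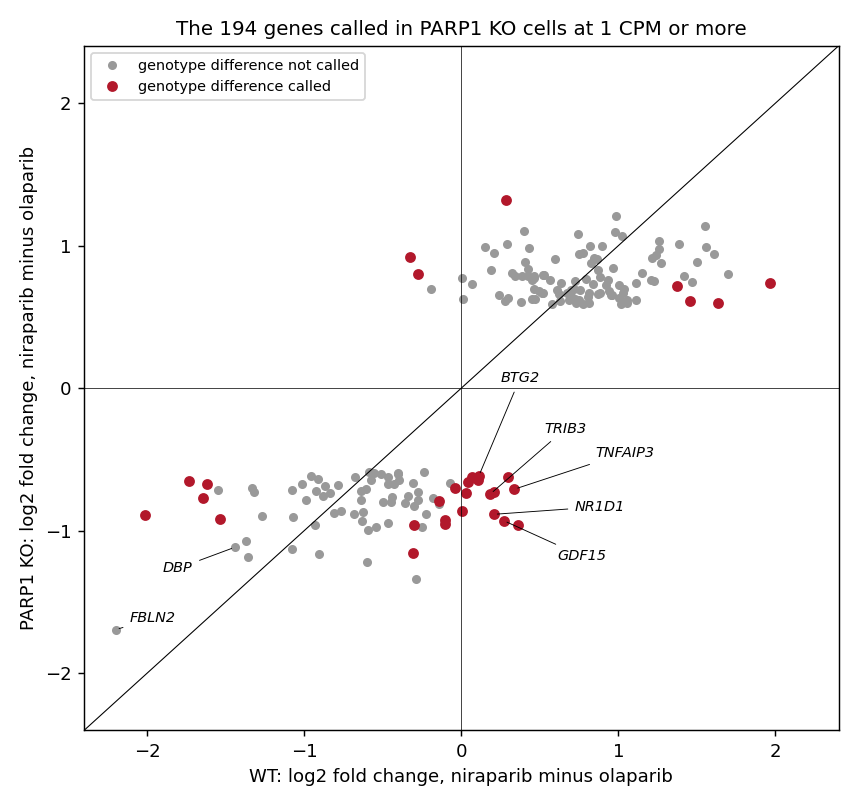
Log2 fold change of niraparib minus olaparib in PARP1 KO cells (y axis) against that in WT cells (x axis) for the 194 genes called in PARP1 KO cells at 1 CPM or more, with the line of equality. Red points mark the 31 genes whose genotype difference was called, among them BTG2, TRIB3, TNFAIP3, NR1D1 and GDF15, which lie below 0 in PARP1 KO cells and above 0 in WT.

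For 34 of the 236 genes the genotype difference was called, in 25 with the larger drug difference in PARP1 KO cells and in 9 against the PARP1 KO direction. The 236 genes were chosen by their difference in PARP1 KO libraries that also enter this test. That choice favors larger differences in PARP1 KO cells, so 25 against 9 does not compare the genotypes. Several stress and clock genes were among the 25. TRIB3 had a log2 fold change of -0.74 in PARP1 KO and 0.18 in WT cells, an interaction of -0.94 ± 0.080 (SE, adjusted P = 9.9e-11, edgeR). GDF15 (-0.93 and 0.27), NR1D1 (-0.89 and 0.21), TNFAIP3 (-0.71 and 0.34), BTG2 (-0.62 and 0.11) and DDIT3 (-0.95 and -0.10, in the order PARP1 KO and WT) were called for the interaction as well. DBP (-1.12 and -1.44), HERPUD1 (-0.62 and -0.96), ICAM1 (-0.94 and -0.63) and CYP26B1 (1.07 and 1.02) were not, with adjusted P of the interaction between 0.068 and 0.99. In WT, mean CPM with niraparib, olaparib and DMSO was 102, 84.9 and 30.2 for GDF15 and 75.3, 65.3 and 21.9 for NR1D1. It was 8.61, 6.83 and 3.22 for TNFAIP3, 97.04, 89.8 and 30.2 for BTG2, and 194, 209 and 91.03 for DDIT3. TRIB3 had 301, 264 and 159 CPM. Both drugs were above DMSO in WT for each of these genes, which was not tested. In PARP1 KO cells, their log2 fold changes against DMSO ran from -0.22 to 0.24 with niraparib and from 0.52 to 1.02 with olaparib. By list, 10 of 22 p53 targets, 7 of 29 ATF4 and unfolded protein response genes and 4 of 19 clock genes had a called, more negative drug difference in PARP1 KO cells, against 2.05% of all genes, and 0 of any of the 3 lists a called, more positive one (edgeR). In WT, 8 ATF4 and unfolded protein response genes were called lower and 2 higher with a median of -0.38, and 5 clock genes were called lower and 2 higher with a median of -0.24, while 5 p53 targets were called higher and 0 lower with a median of 0.26. The median genotype difference was 0.063 for the ATF4 and unfolded protein response list, -0.26 for the clock list and -0.56 for the p53 list, and DDIT4 (0.35), HERPUD1 (0.33) and DBP (0.31) had positive values that did not pass.

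The largest genotype differences arose where the drugs differed in WT and not detectably in PARP1 KO cells with all libraries in the fit. For BEST1 this depended on the setting, since its PARP1 KO difference (log2 fold change of -0.54) passed by adjusted P in 2 of 17 alternatives. PIF1, a DNA helicase, had 15.7 ± 3.35 CPM with niraparib and 15.8 ± 3.85 CPM with olaparib in PARP1 KO cells (SD, n = 3), and 1.18 ± 0.447 and 8.91 ± 0.760 CPM in WT. KIF20A, a kinesin of cytokinesis, had 145 ± 5.40 and 156 ± 12.7 CPM in PARP1 KO cells and 24.2 ± 2.58 and 116 ± 1.53 CPM in WT, and PLK1, a mitotic kinase, 187 ± 8.37 and 180.5 ± 17.3 CPM against 39.9 ± 5.05 and 141 ± 1.05 CPM. TNFAIP8L1 and MEIOB, a meiosis factor, showed the same order. In the opposite direction, CREB5, a CRE-binding factor, had 5.32 ± 0.637 and 4.13 ± 0.694 CPM in PARP1 KO cells and 27.3 ± 3.79 and 3.51 ± 0.181 CPM in WT, and BEST1, an anion channel, 4.09 ± 1.16 and 6.05 ± 1.30 CPM against 50.9 ± 20.996 and 7.55 ± 0.593 CPM. ANKRD1, ARC and MMP10 were the other 3 in this direction, and MMP10, with the most negative fitted value, had at most 4 counts in any PARP1 KO drug library. Of the 31 G2/M genes, 21 were called lower with niraparib in WT, and 19 had a called genotype difference. Among the sterol genes, INSIG1 (-0.60 in PARP1 KO and -1.92 in WT), MSMO1 (-0.39 and -1.25), HMGCS1 (-0.24 and -0.86), SQLE (-0.13 and -0.81) and SCD (-0.074 and -0.81) each had a called genotype difference, as did DUSP1 (0.012 and 0.67). Against DMSO in PARP1 KO cells, the log2 fold changes with olaparib and niraparib were 0.45 and -0.15 for INSIG1 and 0.29 and -0.097 for MSMO1. They were 0.18 and -0.062 for HMGCS1, 0.23 and 0.10 for SQLE, and 0.069 and -0.0049 for SCD. In WT, mean CPM with niraparib, olaparib and DMSO was 24.8, 93.1 and 82.1 for INSIG1 and 38.8, 91.7 and 89.7 for MSMO1. It was 98.8, 179 and 183 for HMGCS1, 70.0, 122 and 127 for SQLE, and 735, 1284 and 1446 for SCD.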

How the data were processed

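RNA-seq libraries of T47D cells, 18 in 6 groups of 3, were deposited as raw read counts per gene. The authors made these counts with featureCounts 2.0.0 over exons on the reverse strand, from primary alignments to GRCh38 with Ensembl release 96 genes, after Trimmomatic, STAR and Picard MarkDuplicates. Whether duplicates were removed is not given in the sources used here. The labels and the study's methods differ in medium, RNA kit and input. Library totals ranged from 28890837 to 52251288 counts, which with 3 libraries a group limits precision for low genes.

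The 9 PARP1 KO libraries entered one fit of genes with more than 10 counts in total, with TMM factors and edgeR 4.0.16 robust quasi-likelihood tests (R 4.3.3) and Benjamini-Hochberg adjustment over all genes. The 9 WT libraries had their own fit, and the genotype difference came from an interaction term over all 18. Each standard error (SE) was taken from the log2 fold change and its F statistic. Alternatives were other size factors, filters, thresholds, sample sets and dispersions, DESeq2 1.42.0, a replicate block and leaving out each library, and those for the DMSO and WT comparisons were added after seeing the data. Pooled distances between libraries used log2(CPM + 0.5). On simulated counts with 200 genes at 1 CPM or more changed 2-fold, edgeR recovered 189 for the drug comparison in PARP1 KO cells (3 others called among 21505 genes) and 168 for the genotype difference (10 others, 24122 genes). Smaller changes and genes under 1 CPM were not simulated, so the recovery of those is not known.

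The genes named were up to 12 called genes per direction with the largest change, a mean of at least 1 CPM and no overlap, called members of 27 lists, genes the study discussed, up to 5 per direction for the genotype difference, and the extremes of a list. Some genes that meet this rule are not reported here. Other names were chosen after their values were seen. The comparison and the lists were chosen with earlier results of these data known. Of 571 list entries 570 matched a gene of the files.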

Additional observations from a re-analysis of the deposited data

Results flagged for a closer look

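For 24 of the genes named above, the difference between niraparib and olaparib itself differed between PARP1 KO and WT cells (edgeR interaction term over 18 libraries, adjusted P below 0.05 and more than 1.5-fold). Values are the PARP1 KO log2 fold change minus the WT one.

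Stress, clock and signaling genes had negative values, with -1.21 for GDF15, -1.10 for NR1D1, -1.06 for TNFAIP3, -0.94 for TRIB3, -0.86 for DDIT3, -0.74 for BTG2 and -0.67 for DUSP1. RENBP stood at -0.86, and the lncRNA ENSG00000273314 at 1.03. The sterol and fatty acid genes were positive, with 1.31 for INSIG1, 0.85 for MSMO1, 0.72 for SCD, 0.66 for SQLE and 0.61 for HMGCS1.

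The most positive values belonged to PIF1 (2.85), TNFAIP8L1 (2.70), MEIOB (2.19), KIF20A (2.16) and PLK1 (1.87). The most negative ones belonged to MMP10 (-6.33), BEST1 (-3.31), ANKRD1 (-2.84), CREB5 (-2.60) and ARC (-2.44). MMP10 had at most 4 counts in any PARP1 KO drug library, so its fitted value depends on the prior count and is no bound.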

How the results depend on the processing

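The 236 genes called between the drugs in PARP1 KO cells became 183 to 262 under 8 other fits, including 200 with DESeq2 (191 shared). With each library left out the count ranged from 144 (without niraparib replicate 2) to 281. It was 2203 by adjusted P alone, 114 at an adjusted P below 0.01 and 24 with an absolute log2 fold change above 1.5. The 800 genes of the genotype difference became 766 to 841 under other fits, 628 (without WT niraparib replicate 2) to 898 with a library left out, 3335 by adjusted P alone and 90 above the larger fold. With no filter on low counts, 24 genes were called between niraparib and DMSO in place of 3, and the cause was not tested. Only genes chosen by the naming rule were refitted one by one. Among these, no log2 fold change between the drugs that passed by adjusted P changed sign. Other genes in the text were not followed across the alternatives. Near 0 and not past the test, FASN, PIF1, PLK1, DUSP1 and MYLIP changed sign under at least 1 alternative, as did the medians of 11 lists. Of 40 entries for called named genes, 21 were called under all 17 alternatives. Scaling moved the median of all genes by less than 0.1.

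The replicate block gave 206 called genes between the drugs (199 shared) and 766 for the genotype difference. Deviations of same-numbered niraparib and olaparib libraries correlated at -0.158 to 0.58 and those of different number at -0.618 to 0.468. The highest value, 0.58, was that of niraparib replicate 3 with olaparib replicate 3. With so few pairs, whether the numbers pair the libraries cannot be told.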

Other observations

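A few genes outside the lists are given singly, chosen after their values were seen and standing for no group. FLCN, folliculin, which acts on the Rag GTPases at the lysosome, had 17.2, 20.2 and 19.8 CPM with niraparib and 39.3, 33.99 and 35.3 CPM with olaparib, or -0.92 on the log2 scale (adjusted P = 1.1e-06, edgeR). RRAGD, one of those GTPases, was lower by the same test (log2 fold change of -0.83), as were the insulin receptor substrate IRS2 (-0.80) and the kinase PIM1 (-0.90). TGFB1 (0.75), TGFB2 (0.59) and the receptor kinase MET (0.69) were higher with niraparib. The mitochondrial ribosomal RNAs MT-RNR1 (-0.48, adjusted P = 6.1e-05) and MT-RNR2 (-0.46, adjusted P = 2.6e-05) were lower by less than 1.5-fold.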
